A study of Mus musculus with 15 samples.

Results

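The Meg3 domain of mouse chromosome 12 was followed across 3 libraries of day 12 organoids grown from hybrid SpretB6 lines, in which each autosome has a Mus spretus (Spret) copy and a C57BL/6J (B6) copy. The members are the noncoding RNA genes Meg3, Rian, Mirg, B830012L14Rik and Gm37899 and the protein-coding genes Rtl1 and Dlk1, 7 of the 44260 genes of the table. They were chosen by name from the allele-specific table, selected on Spret shares that differed between libraries in earlier results of the same data, so their values are given as a description with no test. The libraries come from samples titled SpretB6_C1, SpretB6_C2 and SpretB6_C3, called libraries 1, 2 and 3 here. The labels name epiblast stem cells as the tissue and organoids in the growth protocol, and the table is named for day 12 organoids. The 12 induced pluripotent stem cell samples of 4 crosses were not analysed here. The labels leave unsaid whether these libraries are separate cultures or separate clones, and the spread between them may be technical in part.

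The domain is an imprinted cluster: in mouse tissues the copy from the mother expresses Meg3, Rian, Mirg and the small RNAs that lie among them, and the copy from the father expresses the protein-coding genes Dlk1, Rtl1 and Dio3. A control region between Dlk1 and Meg3, methylated on the copy from the father, sets this choice in embryonic cells. The noncoding RNAs are abundant in brain, and the cluster is known from mouse induced pluripotent stem cells as one whose activity can differ between lines.

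In all 3 libraries the X chromosome was read from B6 and the Y chromosome from Spret, the arrangement that a B6 mother and a Spret father give. Spret held 0.10%, 0.0937% and 0.0883% of X-linked values in libraries 1, 2 and 3, and B6 held 0.667%, 0.749% and 0.228% of Y-linked values. There was no library of the reverse cross, and so the strain of an allele and the parent it came from cannot be told apart for any autosomal gene. Values are normalised read numbers that the authors rounded to whole numbers, and column sums ranged from 2088788 to 2639912 for Spret and from 2413876 to 3027078 for B6. Over all autosomes Spret held 47.7%, 47.7% and 47.9% of the values, and on chromosome 12 outside the domain 45.2%, 46.1% and 43.1%. Summed over both alleles, 13 dorsal forebrain markers held 25843, 25042 and 25557, led by the neuronal microtubule genes Map2 and Dcx. In the same libraries 7 choroid plexus markers, led by Ttr and Foxj1, held 3246, 809 and 487. The 11 epiblast and pluripotency markers, led by Otx2 and Klf4, held 346, 293 and 177, and 4 of them had a mean of at least 20. Otx2 is also among the choroid plexus markers. Mesenchyme and neural crest markers, led by Dcn and Tfap2b, held 590, 507 and 496, and endoderm markers 2613, 650 and 357, where 1 of 7 genes, Ttr, had a mean of at least 20. Glia and vascular markers, led by Gfap and Pecam1, held 288, 411 and 323. No list had a gene at 0 in all columns. The part of these differences in the results below was not tested.

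Library 3 stood apart from libraries 1 and 2 at the domain. Of the 7 members, 6 were read mostly from B6 in libraries 1 and 2 and mostly from Spret in library 3, and Dlk1 was near its limit of detection. Summed over these 6 genes, Spret held 1082, 1114 and 14155 in libraries 1, 2 and 3, and B6 held 9172, 7537 and 2332. The Spret share was 10.6%, 12.9% and 85.9%. Within a library the 6 genes lay close together, from 9.0% to 14.7% in library 1, from 9.28% to 14.5% in library 2 and from 82.7% to 86.9% in library 3. A mean over the 3 libraries therefore describes none of them, and values are given per library. The X-linked and Y-linked values above show the same sex chromosome origin in library 3 as in the other two.

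**Figure D1:**
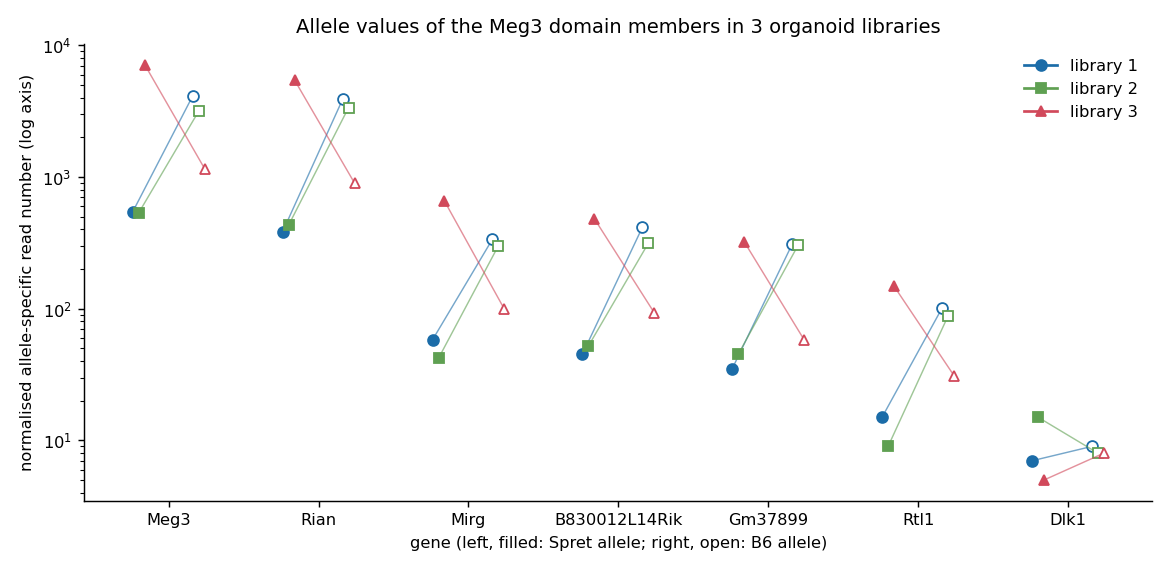
Normalised allele-specific read numbers (log axis) of the 7 members, with the Spret allele left (filled) and the B6 allele right (open) and a line joining the alleles of a library. For Meg3 the Spret values were 545, 535 and 7116 and the B6 values 4129, 3162 and 1153 in libraries 1, 2 and 3, so the lines of library 3 cross those of the other libraries for every gene except Dlk1.

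Meg3, a long noncoding RNA of the nucleus at chr12:109541001-109571726 on the plus strand (mm10), had the highest mean summed value of the members, although Rian exceeded it in library 2. It read 545, 535 and 7116 from Spret in libraries 1, 2 and 3, and 4129, 3162 and 1153 from B6. The Spret values of libraries 1 and 2 were the lowest of the 6, and the Spret value of library 3 was the highest. Its Spret share was 11.7%, 14.5% and 86.1%, and the log2 ratio of Spret to B6 was -2.92, -2.56 and 2.62. The mean share of 37.4% ± 42.2 (SD, n = 3) was 13.1% without library 3. The allele with the higher value exceeded the other by 7.58-fold, 5.91-fold and 6.17-fold, so the imbalance was of like size in the 3 libraries and opposite in direction in the third. Both alleles together read 4674, 3697 and 8269, which placed Meg3 at rank 48, 60 and 22 of all genes by summed value. Set against the library total, it held 927, 821 and 1459 per 1000000 of all values.

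The promoter sequences of Meg3 and Dlk1 are shown because the allelic pattern of Meg3 was not detectable in Dlk1, 77.7 kb upstream. Both are the 250 bases before the gene's start in RefSeq (GRCm38.p6), at chr12:109540746-109540995 and chr12:109452573-109452822, plus strand. Capitals mark matches on either strand to TGACGTCA, the cAMP response element, TATAAA, the TATA box, and TGCCGC, the letters bound by the imprint-maintenance protein Zfp57 when methylated.
Meg3 promoter: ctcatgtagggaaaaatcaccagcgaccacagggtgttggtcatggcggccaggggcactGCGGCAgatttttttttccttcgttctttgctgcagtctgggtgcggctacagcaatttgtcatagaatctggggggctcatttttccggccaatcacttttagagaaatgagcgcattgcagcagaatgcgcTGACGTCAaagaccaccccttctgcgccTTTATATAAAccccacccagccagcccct
Dlk1 promoter: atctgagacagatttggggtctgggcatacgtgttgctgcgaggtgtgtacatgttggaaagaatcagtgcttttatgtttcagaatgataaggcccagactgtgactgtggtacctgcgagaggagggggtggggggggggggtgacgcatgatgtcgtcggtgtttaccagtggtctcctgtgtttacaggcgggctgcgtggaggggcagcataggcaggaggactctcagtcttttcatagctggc
The Meg3 window held 1 match to TGACGTCA, beginning at base -57, 2 overlapping matches to TATAAA, 1 on each strand, and 1 match to TGCCGC at base -190, read as GCGGCA. The Dlk1 window held none of the 3. Over 32851 promoter windows of this length, 1.55% held TGACGTCA, 12.4% held TATAAA and 8.68% held TGCCGC. The Meg3 window had 10 CpG and the Dlk1 window 8, against a median of 6.00. Another Meg3 promoter entry, at chr12:109545148-109545397, held none of the 3 motifs and 0 CpG, and its sequence is not shown. These matches are letters in a window and are not evidence of binding. A promoter entry was found for 4 of the 7 members.

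Rian, the host of a large group of small nucleolar RNAs at chr12:109603940-109661716, read 384, 431 and 5431 from Spret in libraries 1, 2 and 3, and 3882, 3368 and 898 from B6. Its Spret share of 9.0%, 11.3% and 85.8% gave a mean of 35.4%, which was 10.2% without library 3. Across libraries its share moved by 76.8 percentage points, the widest range of any autosomal gene with a mean summed value of at least 100. Rian summed to 4266, 3799 and 6329, at rank 62, 56 and 38.

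Mirg, the host of a microRNA cluster at chr12:109729764-109749460, lies 208.5 kb downstream when its end is measured from the Meg3 start. It read 58, 42 and 656 from Spret in libraries 1, 2 and 3, and 337, 301 and 99 from B6, a Spret share of 14.7%, 12.2% and 86.9%. Summed over alleles, Mirg stood at 395, 343 and 755. Its mean share was 37.9%, and 13.5% without library 3.

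The other noncoding members are less studied and lie between Rian and Mirg. B830012L14Rik, annotated as a long intergenic RNA at chr12:109695586-109702587, read 45, 52 and 482 from Spret in libraries 1, 2 and 3, and 414, 314 and 93 from B6, a Spret share of 9.80%, 14.2% and 83.8%. Gm37899, a plus-strand transcript of undetermined type in the annotation, at chr12:109668869-109677585, read 35, 45 and 322 from Spret, and 309, 304 and 58 from B6, a share of 10.2%, 12.9% and 84.7%. Both followed Meg3 in every library. Without library 3 their mean shares were 12.0% and 11.5%.

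Rtl1 is a protein-coding gene derived from a retrotransposon, needed in placenta and muscle, and is known to be expressed from the copy from the father, opposite to Meg3. In these libraries its row followed Meg3. It read 15, 9 and 148 from Spret in libraries 1, 2 and 3, and 101, 88 and 31 from B6, a Spret share of 12.9%, 9.28% and 82.7%. Rtl1 lies on the minus strand at chr12:109589193-109600330, and a plus-strand transcript across it carries microRNAs that are known in mouse to cut the Rtl1 mRNA. All 11 mature microRNAs that RefSeq places there have 1 exactly complementary site in the Rtl1 transcript, as their position on the opposite strand implies, and each site lies in its coding exon. For 5 of them the sequence follows with the seed, bases 2 to 8, in capitals, because these sites are where plus-strand and minus-strand RNA share the bases of the Rtl1 row.
miR-127-3p: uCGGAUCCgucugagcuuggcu
miR-136-5p: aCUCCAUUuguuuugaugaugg
miR-431-5p: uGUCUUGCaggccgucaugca
miR-433-3p: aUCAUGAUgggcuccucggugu
miR-434-3p: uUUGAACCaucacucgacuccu
site of miR-127-3p in Rtl1: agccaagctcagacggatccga
The 5 seeds differ from one another. Per the labels and headers it is unknown whether the authors counted by strand, so RNA of Rtl1 and RNA of the opposite strand cannot be told apart in this row. Some short rows that lie on opposite strands of the same bases held equal values. Inside Rtl1, Mir136 on the plus strand and Mir3071 on the minus strand each held 0, 0 and 1 from Spret in libraries 1, 2 and 3, and 3, 0 and 1 from B6. Over the whole table, 5 pairs of short RNA rows overlapped on opposite strands by at least 90% of the longer row, and 4 of them had all 6 values equal. These equal pairs summed to at most 3 per row, and the pair with the highest values, Gm24111 at 9 and Mirlet7f-1 at 5, was not equal. Among the 3 pairs with a sum of at least 5, 2 were equal. These pairs were picked after their values were seen.

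Dlk1 encodes a membrane protein related to the Notch ligands and lies upstream of Meg3, at chr12:109452823-109463336. It read 7, 15 and 5 from Spret in libraries 1, 2 and 3, and 9, 8 and 8 from B6. The alleles overlapped, and the Spret share of 43.8%, 65.2% and 38.5% (mean 49.1% ± 14.2, SD, n = 3) rests on sums of 16, 23 and 13. At this depth a lean of either allele was not detectable. Dlk1 had a mean value of 8.67 and was the 1 member below the minimum of 10 used for tests, which 6 members passed. Its share in library 3 moved away from that of Meg3, 38.5% against 86.1%, but differences of this size are a few units in each column.

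Compared per kilobase of annotated exon, the summed level was 307 ± 133 for Meg3, 263 ± 73.8 for Rian, 104 ± 23.2 for B830012L14Rik, 68.2 ± 30.8 for Mirg, 41.0 ± 2.24 for Gm37899, 20.6 ± 6.75 for Rtl1 and 3.06 ± 0.907 for Dlk1 (normalised values per kb, SD, n = 3). The exon length merges all annotated transcripts of a gene, which may differ from those present. Only reads assigned to an allele count, and their part of all reads of a gene is not given, so the order is approximate. Neighbours in this order did not overlap between libraries except for Meg3 with Rian and B830012L14Rik with Mirg. Summed over the 6 members other than Dlk1, both alleles held 10254, 8651 and 16487 in libraries 1, 2 and 3, or 2035, 1921 and 2909 per 1000000 of the library. Library 3, with the opposite allele, was the highest. The increase was not even: Meg3 summed to 8269 in library 3 against 4674 and 3697 in libraries 1 and 2, while Gm37899 summed to 380 against 344 and 349. In bulk RNA, fewer cells with a transcript and less RNA per cell cannot be told apart.

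The allele with the lower value was also detected, and whether in all cells or in some of them was not tested. Its share of the 6 members ranged from 9.0% to 14.7% in library 1, from 9.28% to 14.5% in library 2 and from 13.1% to 17.3% in library 3. For comparison, 252 X-linked genes with a mean summed value of at least 100, which are present in a single copy from B6, had Spret shares of at most 2.34%, 1.67% and 1.08%, with a median of 0 in each library. In libraries 1 and 2, where the lower allele was Spret, it lay above these values for each of the 6 members. In library 3 the lower allele was B6, and the matching values are those of Y-linked genes, present in a copy from Spret, where B6 held 2 of the values and Spret 876, a B6 share of 0.228%.

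Proportions to Meg3 were compared between the alleles for the other members. As a percentage of Meg3 on the same allele, Rian stood at 94.0%, 107% and 76.3% on the higher allele of libraries 1, 2 and 3 and at 70.5%, 80.6% and 77.9% on the lower one. Mirg stood at 8.16%, 9.52% and 9.22% on the higher allele and at 10.6%, 7.85% and 8.59% on the lower one. Rtl1 stood at 2.45%, 2.78% and 2.08% on the higher allele and at 2.75%, 1.68% and 2.69% on the lower one. For Rian, Mirg and Rtl1 the ranges of the higher and the lower allele overlapped over the 3 libraries. Paired within a library, Rian stood higher on the higher allele in libraries 1 and 2 and slightly lower on it in library 3. Mirg and Rtl1 did not follow this order. B830012L14Rik ranged from 6.77% to 10.03% on the higher allele and from 8.07% to 9.72% on the lower one, and Gm37899 from 4.53% to 9.61% and from 5.03% to 8.41%, so their ranges overlapped too. Paired within a library, both went the same way as Rian, and these differences were not tested. Dlk1 could be set beside them in library 1 only, because in libraries 2 and 3 its higher allele was not that of Meg3. In library 1 it stood at 0.218% of Meg3 on the higher allele and at 1.28% on the lower one, from the low values given above.

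Summed by kind, the small RNA genes inside the domain leaned to B6 in libraries 1 and 2 and to Spret in library 3. The table held 98 other genes between Dlk1 and Dio3. Between the Meg3 start and the Mirg end, 83 of them together had a Spret share of 11.1%, 11.6% and 85.1% in libraries 1, 2 and 3. The 58 microRNA rows stood at 13.8%, 12.7% and 85.8%, and the 22 small nucleolar RNA rows at 6.55%, 11.6% and 81.5%. Of the rows between Meg3 and Mirg with a summed value of at least 10, 14 of 15 in library 1 and 17 of 17 in library 2 were below 50% Spret, and 28 of 28 in library 3 were above it. The exception in library 1 was Mir654, at 57.1%, named after its values were seen. Many of these rows overlap a member: 17 overlap Rian, 13 Mirg, 6 Rtl1 and 4 Meg3, and how reads in overlapping genes were counted is not given. The 42 microRNA and small nucleolar RNA rows that overlap no member had shares of 14.3%, 16.0% and 87.3%. Beyond Mirg the pattern ended, with 13 rows at 52.2%, 49.4% and 54.1%, but these summed to only 46, 79 and 37.

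The most abundant of these rows was Gm24895, a small nucleolar RNA gene within Rian, which read 9, 18 and 101 from Spret in libraries 1, 2 and 3, and 119, 148 and 32 from B6. Gm27350, a short RNA that overlaps the annotated start of Rian, read 12, 1 and 96 from Spret, and 62, 26 and 9 from B6. Mir1906-1, a microRNA gene within Meg3, read 6, 1 and 54 from Spret, and 46, 45 and 11 from B6. All 3 leaned to B6 in libraries 1 and 2 and to Spret in library 3. The small nucleolar RNA rows Gm23474, AF357425 and Gm23600 read 28, 47 and 24 from Spret in library 3, against 9, 8 and 4 from B6. The mature miR-1906 sequence, with its seed in capitals, and the genes of the small nucleolar RNAs Gm24895 and AF357425, with the C box TGATGA and the last CTGA of the D box in capitals, stand here as the short RNAs of Meg3 and Rian whose rows carry the pattern.
miR-1906: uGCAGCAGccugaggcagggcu
Gm24895: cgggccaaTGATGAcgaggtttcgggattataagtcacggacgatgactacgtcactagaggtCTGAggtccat
AF357425: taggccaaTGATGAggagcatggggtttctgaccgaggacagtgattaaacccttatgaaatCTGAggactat
The microRNA sequences are those of RefSeq (GRCm38.p6), and the small nucleolar RNA sequences those of GENCODE M21, plus strand of mm10, with Gm24895 at chr12:109646129-109646202 and AF357425 at chr12:109636012-109636084. Rows of such repeated small RNA genes, and Mir1906-1, whose mature sequence RefSeq also places on chromosome X, are uncertain where reads could be split between copies. The libraries were made from total RNA after removal of ribosomal RNA, so reads in these rows may come from the long host transcripts, which was not tested.

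**Figure D2:**
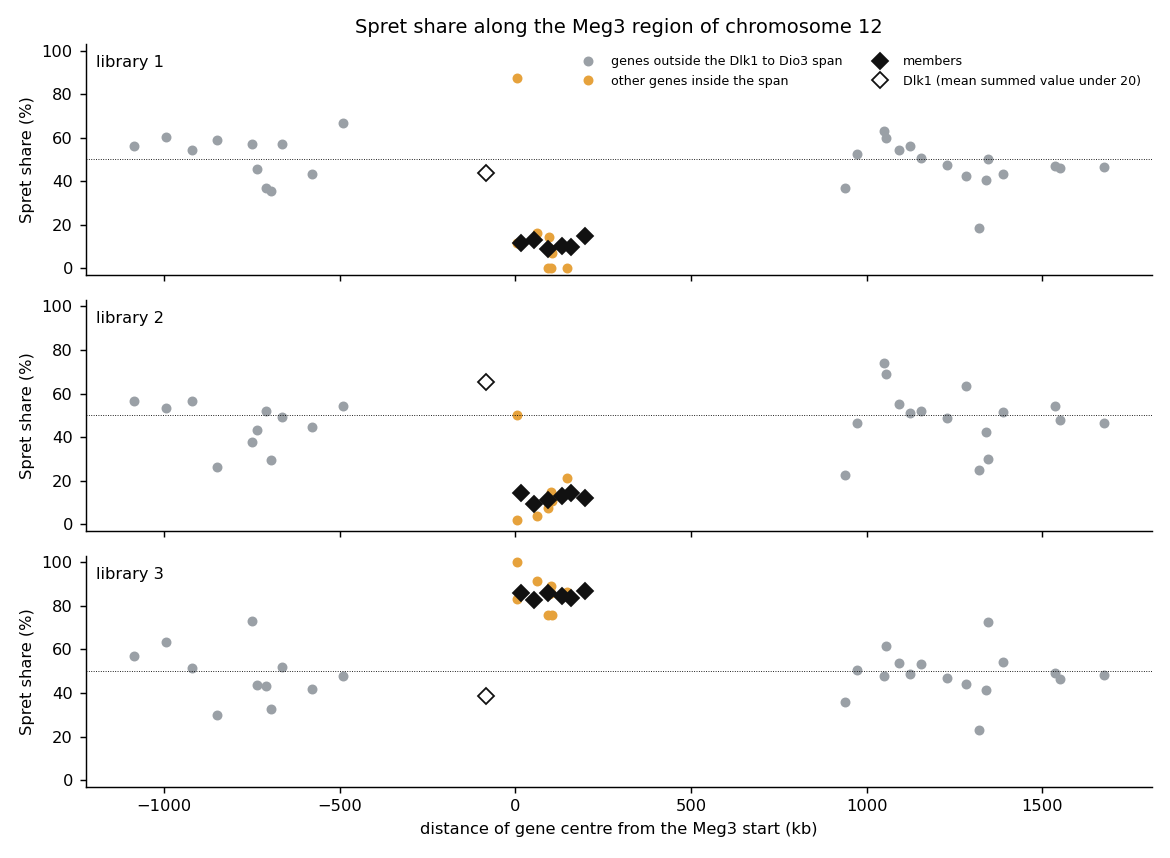
Spret share (%) of each gene with a mean summed value of at least 20 against the distance of its centre from the Meg3 start (kb), 1 panel per library. The members other than Dlk1 lay between 9.0% and 14.7% in libraries 1 and 2 and between 82.7% and 86.9% in library 3, and the genes outside the Dlk1 to Dio3 span scattered on both sides of 50% in all 3 panels.

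A paired limma test on log2(value + 1), with library and allele as terms, was run over the 15985 genes whose mean value reached 10, and 30.4% of them differed between alleles at an adjusted p under 0.05, 7.56% higher from Spret and 22.8% higher from B6. These 4852 calls became 2667 without library 1 and 3176 without library 3. Spret and B6 values were fully separate in 0 of the 7 members and 0 of the 9 other tested genes inside the domain. Over all tested genes, which leave out Dlk1, the share was 25.9%. Where the higher allele changes in library 3 the values must overlap, so these counts of 0 restate how the domain was chosen and are no test. Among those 9, limma called 1, Gm27300 within Meg3, which was named after its values were seen. It read 7, 1 and 53 from Spret in libraries 1, 2 and 3, and 1, 1 and 0 from B6 (log2 ratio 2.58 ± 0.80 SE, limma adjusted p = 0.0246). Its mean value of 10.5 passed the minimum of 10 only through the 53 from Spret in library 3, so the call is given as a description. Without library 1 that call ended and 0 of the 9 were called. Without library 3, limma called 8 of the 9, all higher from B6. Most of the 9 lie inside Meg3 or Rian, in a domain chosen because its shares differed between libraries. The count without library 3 restates that choice and is no test. In the 3 libraries together, 0 of the 9 were called higher from B6 by limma, and 3 of the 9 had an unadjusted p under 0.05 in either direction.

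Summed over the genes on either side, shares were near equal in all 3 libraries, although single genes ranged from 18.7% to 73.9% Spret. The 8 tested neighbours upstream of Dlk1 had a summed Spret share of 52.5%, 50.1% and 47.9% in libraries 1, 2 and 3, and the 11 downstream of Dio3, where Dync1h1 and Hsp90aa1 held most of the sum, had 51.7%, 52.7% and 52.7%. Begain, a synaptic scaffold-associated protein and the nearest of the upstream genes at 384.6 kb from Dlk1, stood at 66.7%, 54.5% and 47.7% and was not called. Over all genes within 1 Mb of the domain with a mean summed value of at least 20, medians were 56.0%, 49.3% and 47.7% for 11 upstream genes and 47.1%, 49.9% and 48.4% for 16 downstream genes. Dio3, the deiodinase that inactivates thyroid hormone and ends the imprinted cluster, was barely detected, at 7, 4 and 5 from Spret, and 1, 1 and 7 from B6.

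Of 19 tested neighbours, limma called 7, 3 higher from Spret and 4 higher from B6, beside the 30.4% called over all genes. Zfp839, a zinc finger gene, was lowest from Spret, at 14, 17 and 15 in libraries 1, 2 and 3, against 61, 51 and 50 from B6 (log2 ratio -1.75 ± 0.25 SE, limma adjusted p = 9.25e-05). Slc25a47, a mitochondrial carrier of liver, read 23, 29 and 30 from Spret, and 42, 69 and 62 from B6 (-1.03 ± 0.22, limma adjusted p = 0.00233). Cinp, a cell cycle checkpoint protein, had a log2 ratio of -0.49 ± 0.16 and Yy1, a transcription factor, one of -0.34 ± 0.10. Higher from Spret were Dync1h1, the heavy chain of cytoplasmic dynein, at 0.26 ± 0.04 and Evl, an actin regulator, at 0.24 ± 0.08. Each of these genes kept the same side in all 3 libraries. The calls of Yy1 and Cinp ended when ratios were centred on the autosomal median, and 4 neighbours were called when any 1 library was left out. Evl lost its call without library 1 or 2, Cinp without library 1 or 3 and Yy1 without library 1, 2 or 3.

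**Figure D3:**
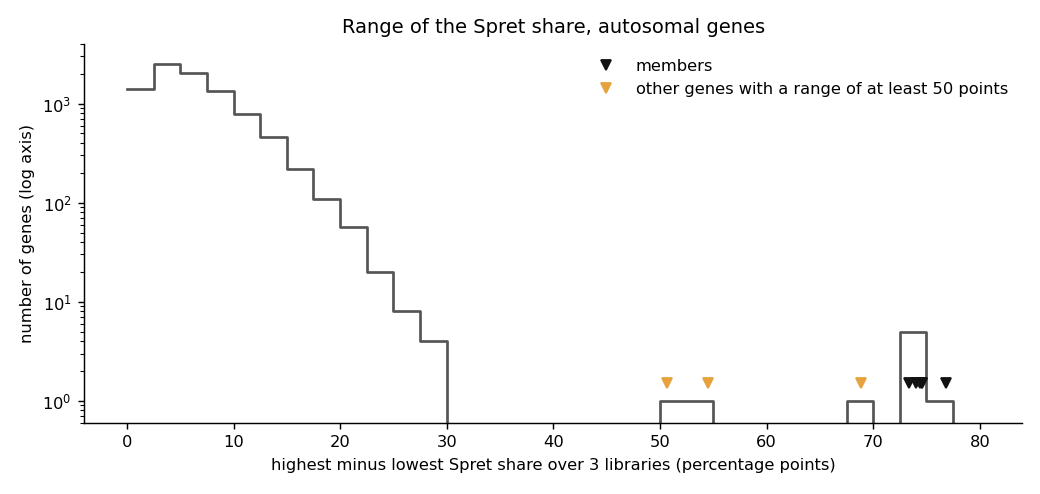
Number of autosomal genes (log axis) by the range of their Spret share over the 3 libraries, in percentage points, for 8952 genes with a mean summed value of at least 100. The members other than Dlk1 lie between 73.4 and 76.8 points, to the right of the 99th percentile at 20.2.

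Set against the whole table, few genes outside the domain had an allele share that moved as far between libraries. Among 8952 autosomal genes with a mean summed value of at least 100, the Spret share ranged over a median of 5.62 percentage points between libraries, with a 99th percentile of 20.2. A range of at least 50 points was found in 9 genes, 0.101% of them, and 6 of these were members, at ranks 1 to 6 with 73.4 to 76.8 points. Another was Gm24895 inside Rian, at 68.9 points. These values chose the members, so the ranks describe them and are no test. Outside the domain, 2 genes reached 50 points, and the next gene, Vps26c, reached 29.4.

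Among the members and the ranked genes outside the domain, those nearest to Meg3 in Spret share were other members, which were chosen on these shares. Other rows inside the domain were not ranked, and some lay as near. Gm24899, a small nucleolar RNA row within Rian, stood at 9.09%, 14.8% and 88.9% Spret in libraries 1, 2 and 3. By the largest difference in share over the 3 libraries, Gm37899 was 1.58 points from Meg3, B830012L14Rik 2.23, Mirg 3.02, Rian 3.13 and Rtl1 5.19. Outside the domain, among 8945 autosomal genes with a mean summed value of at least 100, the nearest were Pcdh20 at 29.1 points, Pip4p2 at 29.4, Actr5 at 29.8, Hmgn3 at 29.9 and Memo1 at 30.4. Pcdh20, the nearest, stood at 37.7%, 42.6% and 56.9% Spret in libraries 1, 2 and 3. Dlk1, at 50.7 points from Meg3, was nearest to Tpbg at 3.35 points, B230118H07Rik at 4.98, Zc3h12c at 5.13, Spr at 5.29 and Man2a1 at 5.48. Because the Dlk1 shares rest on sums of 16, 23 and 13, where a single unit moves the share by several points, this last order cannot be read as likeness.

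Genes known as imprinted elsewhere in the genome were read from both alleles in most cases. The 2 lists were not chosen by tissue, and whether these genes are imprinted in such organoids was not tested. Of 20 tested genes known to be expressed from the copy from the mother, 19, 20 and 19 lay between 35% and 65% Spret in libraries 1, 2 and 3, with medians of 47.2%, 48.7% and 46.6%. Of 24 genes known to be expressed from the copy from the father, 21, 22 and 19 lay in this interval, with medians of 48.3%, 49.9% and 47.8%. Limma called 6 of the 20, 1 higher from Spret and 5 from B6, and 11 of the 24, 4 higher from Spret and 7 from B6, 17 of 44 in all, beside the 30.4% called over all tested genes, 7.56% higher from Spret and 22.8% higher from B6. The median log2 ratio was -0.19 and 0.05 in the 2 lists, against -0.14 over all tested genes. With ratios centred on the autosomal median, 12 of the 44 were higher from Spret by limma and 7 higher from B6. Leaving out library 1 reduced the 17 calls to 11.

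The maternally expressed genes of highest value were Ube3a, a ubiquitin ligase silenced from the father's copy in mature neurons, Gnas, the alpha subunit of a stimulatory G protein, and Ppp1r9a, a neuronal actin-binding protein. Ube3a stood at 45.4%, 44.4% and 41.9% Spret in libraries 1, 2 and 3 (log2 ratio -0.35 ± 0.06 SE, limma adjusted p = 2.05e-04), Gnas at 48.8%, 48.1% and 51.6% and Ppp1r9a at 45.8%, 45.8% and 42.8% (-0.30 ± 0.07, limma adjusted p = 0.00639), a call that ended without library 3. The paternally expressed genes of highest value were Peg3, a zinc finger gene, Usp29, its neighbour, and Snhg14, the long host of small nucleolar RNAs in the Prader-Willi region. Peg3 stood at 48.4%, 49.0% and 60.2%, Usp29 at 48.1%, 49.1% and 57.3% and Snhg14 at 54.4%, 57.6% and 48.0%. None of the last 3 was called (limma adjusted p = 0.247, 0.444 and 0.0824).

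**Figure D4:**
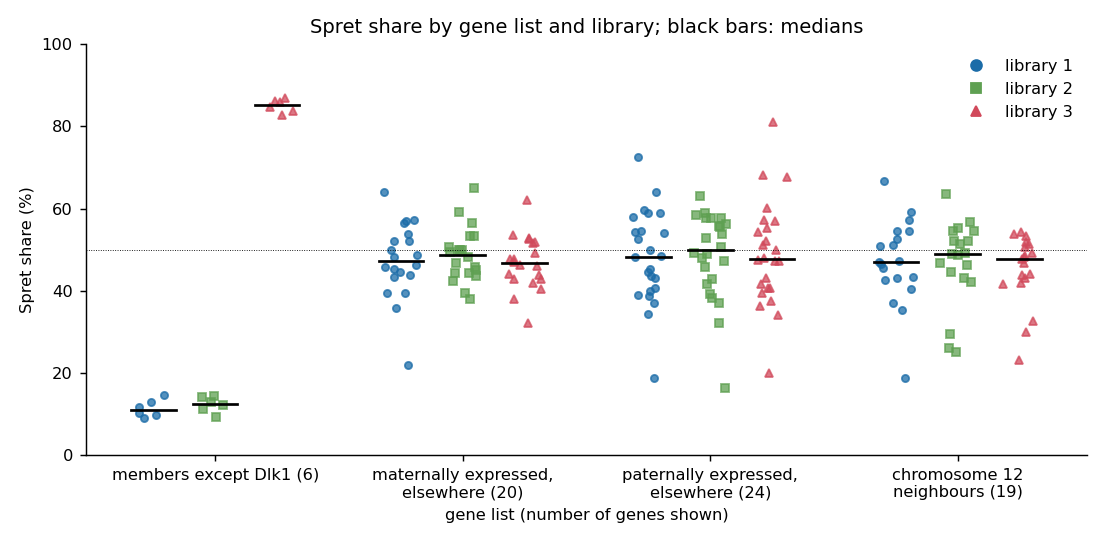
Spret share (%) of single genes (points) in 4 gene lists by library, with black bars at the medians. In libraries 1, 2 and 3 the medians were 47.2%, 48.7% and 46.6% for maternally expressed genes elsewhere and 48.3%, 49.9% and 47.8% for paternally expressed ones, while the members other than Dlk1 lay between 9.0% and 14.7% in libraries 1 and 2 and between 82.7% and 86.9% in library 3.

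Of 22 tested genes that maintain imprints or modify chromatin, limma called 2 toward Spret and 5 toward B6, among them the X-linked Atrx, which was read from its single B6 copy. Trim28, the corepressor recruited to imprinted regions by zinc finger proteins, was higher from Spret (log2 ratio 0.26 ± 0.06 SE, limma adjusted p = 0.00462), with shares of 53.3%, 54.7% and 55.3%. Its call ended without library 3, when 4 genes were called, all higher from B6. Of 16 tested genes of the Delta-Notch pathway, to which Dlk1 is related, 2 were called, both higher from Spret. Jag1, a Notch ligand, read 50, 64 and 88 from Spret in libraries 1, 2 and 3, and 32, 33 and 50 from B6 (log2 ratio 0.79 ± 0.19 SE, limma adjusted p = 0.00640). Hes5, a Notch target, was the other, and each was higher from Spret in 3 of 3 libraries. The call of Jag1 ended without library 3 and that of Hes5 without library 1, which left 1 call in each case. Both lists were called at shares close to or below the 30.4% of all tested genes.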

How the data were processed

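RNA of 3 SpretB6 organoid libraries was depleted of ribosomal RNA and sequenced with 80M reads planned for each, per the labels' protocols. The deposited table gives a score: allele-specific normalised read numbers per gene and allele, rounded by the authors to whole numbers, judged from the table's name and values. Per the submitters' processing notes, reads were placed on mm10. The aligner, allele assignment, counting and use of strand are not given in the sources used here. Only reads assigned to an allele enter the table, and column sums stand in for depth, so no counting intervals were computed. All 6 columns were used, and no pair was identical.

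From these values the Spret share of both alleles was computed per gene and library. Positions came from GENCODE M21 (42620 genes) and RefSeq (899 more), and 741 genes had none. For all genes whose mean value reached 10, log2(value + 1) was fitted in R 4.3.3 by limma 3.58.1, using terms for library and allele and a trend. The library term pairs the alleles, since both come from 1 RNA sample. Two-sided p-values were adjusted over 15985 genes (Benjamini-Hochberg), with a threshold of 0.05. The fit was checked on simulated data. The members and gene lists were chosen with earlier results of these data known. Genes named are all members, up to 6 called neighbours of largest ratio, the 6 domain rows and 3 imprinted genes per list of highest summed value, the called gene of highest summed value per direction in the imprint maintenance and Delta-Notch lists, 2 markers per list and 5 genes nearest in share. Hes5, Gm27300, Begain, Dio3, Vps26c, Mir654, Hsp90aa1, Mir136 and Mir3071 were named after their values were seen.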

Additional observations from a re-analysis of the deposited data

How the results depend on the processing

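Mean Spret shares and summed levels of the 7 members moved by less than 1 SD of the 3 libraries under each alternative run, an SD that library 3 makes wide for 6 of them. For the runs without a single library this was fixed in advance, since leaving out 1 of 3 values cannot move a mean by 1 SD. Without a single library the mean share of Meg3 lay between 13.1% and 50.3%, and that of Rian between 10.2% and 48.6%. Called genes by limma depended more on the settings. Over all genes the 4852 calls became 1236 with no filter on low values, 1537 with no replicate block, that is without the pairing by library, 2229 with no trend, and 2667 to 4083 without a single library. Centred on the autosomal median, a shift of -0.13, -0.13 and -0.12 in libraries 1, 2 and 3, 2059 genes were higher from Spret and 2537 higher from B6, against 1209 and 3643 uncentred. The 7 neighbour calls became 2 with no filter, 2 with no block and 2 with no trend, and 4 without any single library. The 17 calls among imprinted genes became 3 with no filter, 2 with no block and 4 with no trend, and 11 to 15 without a single library. The 7 imprint maintenance calls became 4, 2 and 2 under those settings in the same order, and 4 to 6 without a single library. The 2 Delta-Notch calls became 0, 0 and 1, 1 where genes needed a mean value of 50, and 1 to 2 without a single library. The 1 call inside the domain became 0 with no filter, with no block, with no trend and where genes needed a mean value of 50, and 0 to 8 without a single library. Of 9 alternatives, Zfp839 lost its call under 1, where it fell below the filter, Slc25a47 and Dync1h1 under 2, Ube3a and Jag1 under 3, Trim28 under 4, Evl, Ppp1r9a and Hes5 under 5, Cinp under 6 and Yy1 under 7. These causes were not tested, except that the filters change how many genes are tested. The value of Dlk1 and those of most single short RNA rows lay below the minimum of 10 and were not tested, and 3 libraries cannot show how often the share of the domain turns.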

Other observations

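Outside the domain, a pair of chromosome 6 rows had a Spret share that moved by more than 50 points between libraries, and they are named here because of their values. Gm44433 read 90, 73 and 145 from Spret in libraries 1, 2 and 3, and 0, 1 and 174 from B6. Gm44235 read 67, 78 and 102 from Spret, and 0, 0 and 105 from B6. In both rows the B6 allele was near 0 in libraries 1 and 2 and above the Spret allele in library 3, while the Spret allele was detected in all 3.

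Among paternally expressed genes elsewhere, Kcnq1ot1, a long noncoding RNA of chromosome 7, also differed most in library 3. It read 253, 351 and 2417 from Spret in libraries 1, 2 and 3, and 171, 249 and 564 from B6, a Spret share of 59.7%, 58.5% and 81.1%. Both alleles were highest in library 3. Inpp5f stood at 18.8%, 16.4% and 34.0% Spret, and Nnat, a neuronal membrane protein gene, at 43.6%, 42.9% and 19.9%. These genes were picked after their values were seen, and their differences between libraries were not tested.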
